A study of Homo sapiens with 36 samples.

Results

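The genes described are TNF and 8 related ligands of the TNF superfamily: LTA, LTB, TNFSF9, TNFSF10, TNFSF13, TNFSF13B, TNFSF14 and TNFSF15. They were chosen by name, by matching each symbol to 1 row of the count files, and make up 9 of the 57500 genes counted. RNA was measured in THP-1 cells, a human monocytic leukaemia line, in 36 libraries. Each cell line carried 1 short hairpin RNA, either without a target (shNT) or against NR4A2 (shNR4A2) or NR4A3 (shNR4A3), delivered by lentivirus, so the control line was transduced too. All were kept in buffered medium at 5% or 10% CO2 for 4 h in total, and LPS-treated cells received LPS at 2.5 µg/ml for the last 2 h. There were 3 replicates of each of the 12 conditions. Each hairpin was represented by 1 stably transduced line, so an effect of the depleted gene and a property of that line cannot be told apart. The labels do not say whether replicates were separate cultures. The study's legends speak of individual experiments without tying them to the replicate numbers, and p-values measure the spread between these samples.

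Ligands of the TNF superfamily assemble as trimers, and most are made as membrane proteins that act from the cell surface or after cleavage. They signal through receptors of the TNF receptor superfamily. Those receptors recruit TRAF proteins to activate NF-κB and MAP kinases, or death domain adaptors that start caspase activation. Monocytes are a main source of TNF after LPS, the bacterial cell wall component sensed by TLR4, and TNF in turn drives fever, endothelial activation and recruitment of further leukocytes.

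Each library held 16171161 to 23929138 counts, with a median of 19639071. A gene is called where edgeR's quasi-likelihood test gave a Benjamini-Hochberg adjusted p under 0.05 over 17720 genes, and all 9 ligands were among the genes tested. The targeted genes were checked first: NR4A2 was lower in shNR4A2 than in shNT cells in all 4 conditions, by log2 differences of -0.91 to -1.67 and with adjusted p of 3.28e-07 to 0.0337. NR4A3 was lower in shNR4A3 cells at 5% CO2 (-2.47), 5% CO2 + LPS (-0.82) and 10% CO2 + LPS (-1.11), but at 10% CO2 without LPS its difference of -0.39 did not pass (adjusted p = 0.735). Members of the family that were not targeted were called too. NR4A3 was higher in shNR4A2 cells at 10% CO2 + LPS (0.57, adjusted p = 0.00295). In shNR4A3 cells NR4A1 was lower at 10% CO2 (-0.76, 0.00566) and NR4A2 at 10% CO2 + LPS (-0.32, 0.0166). Levels are given in TPM, a share of all transcripts after scaling by gene length. Without LPS NR4A3 was near the floor, with means of 0.587 TPM in shNT and 0.0990 TPM in shNR4A3 cells at 5% CO2. At 10% CO2 they were 0.263 and 0.205 TPM. Of 10 monocytic markers, 9 averaged over 1 TPM, and FCN1 did not. The 9 erythroid, fibroblast and epithelial markers averaged under 1 TPM, whereas 1 of 5 T cell, 3 of 4 B cell and 1 of 3 NK cell markers were above it. In such bulk libraries fewer expressing cells and less RNA per cell cannot be told apart.

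Positions come from the count files (GRCh38). TNF (ENSG00000232810, chr6:31575567-31578336, plus strand) lay between LTA (ENSG00000226979, chr6:31572054-31574324, plus strand) and LTB (ENSG00000227507, chr6:31580525-31582522, minus strand), within the major histocompatibility complex. TNFSF9 (ENSG00000125657, chr19:6530999-6535928, plus strand) and TNFSF14 (ENSG00000125735, chr19:6661253-6670588, minus strand) were close together on chromosome 19. TNFSF10 (ENSG00000121858) was at chr3:172505508-172523507 on the minus strand, TNFSF13 (ENSG00000161955) at chr17:7558292-7561608 on the plus strand, TNFSF13B (ENSG00000102524) at chr13:108251240-108308484 on the plus strand and TNFSF15 (ENSG00000181634) at chr9:114784635-114806126 on the minus strand. Of the exonic bases of TNFSF13, 55.5% were shared with the readthrough gene TNFSF12-TNFSF13 on the same strand, so its count is uncertain. The other 8 ligands shared no exonic base with another gene of the files.

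Because several of these genes moved together after LPS, the 250 bases before each RefSeq transcript start (GRCh38.p14) were searched on both strands for 6 motifs. These were the NF-κB motif, the AP-1 motif TGANTCA, the CRE TGACGTCA, the ISRE (a pair of GAAA half-sites in the same orientation with 2 bases between), the NR4A response element AAAGGTCA and the TATA box TATAAA, and the first of these is given by name alone. Over all 35116 such windows the shares holding a match were 9.96%, 6.57%, 1.65%, 3.02%, 1.05% and 10.7%, in that order. The windows of TNF and TNFSF15, the pair with the largest LPS responses, contain no exon of the count files and are given whole, 5′ to 3′ on the gene's strand, with motif matches in capitals. The RefSeq start of TNFSF15, like those of TNFSF13B, lies far inside the gene's span in the count files, which for TNFSF15 is chr9:114784635-114806126. The TNFSF15 window is therefore not upstream of the 5′ end of the counted gene. Starts of LTA, LTB, TNFSF9, TNFSF10 and TNFSF14, and 1 of the 2 of TNFSF13, also lie inside their spans, but nearer the 5′ end. The other TNFSF13 start, whose window ends at chr17:7558281, lies just upstream of the span, which begins at 7558292. In TNF the capitals mark a TATA box and in TNFSF15 an AP-1 motif.
TNF (chr6:31575315-31575564, plus strand): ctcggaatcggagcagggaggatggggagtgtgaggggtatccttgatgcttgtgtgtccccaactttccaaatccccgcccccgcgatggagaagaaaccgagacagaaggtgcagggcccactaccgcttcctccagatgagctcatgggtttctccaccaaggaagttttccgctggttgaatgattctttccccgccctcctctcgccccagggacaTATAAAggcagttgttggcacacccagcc
TNFSF15 (chr9:114792531-114792780, minus strand): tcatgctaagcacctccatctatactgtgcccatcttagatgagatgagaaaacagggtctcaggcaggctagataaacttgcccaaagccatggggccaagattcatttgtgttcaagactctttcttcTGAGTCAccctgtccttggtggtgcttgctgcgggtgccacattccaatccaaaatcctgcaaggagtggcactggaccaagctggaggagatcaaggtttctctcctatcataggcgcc

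Of the other ligands, stretches of 30 bases around a match are shown, since parts of the windows that hold a match lie in exons. Capitals mark the NF-κB motif in the first 3 and the ISRE in the last 3, and in LTB and TNFSF10 the match is on the opposite strand, so that its reverse complement is printed.
LTA (chr6:31572175-31572204, plus strand): tctaagccctGGGGGCTTCCccgggcccca
LTB (chr6:31582492-31582521, minus strand): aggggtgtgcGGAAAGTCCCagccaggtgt
TNFSF14 (chr19:6670333-6670362, minus strand): agggaaagctGGGGGCTCCCcactgcactt
TNFSF9 (chr19:6530822-6530851, plus strand): tggaaggccgGAAACGGAAAggagagcgaa
TNFSF10 (chr3:172523598-172523627, minus strand): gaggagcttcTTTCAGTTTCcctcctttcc
TNFSF13B (chr13:108269637-108269666, plus strand): tacaaaaactGAAAGTGAAAtgaggaagac
NF-κB matches were thus present beside LTA and LTB, which rose with LPS, and beside TNFSF14, which fell, but not in the window of TNF. A match was also found for TNFSF13, for AP-1 in TNFSF14, and for the TATA box in LTA, TNFSF9 and TNFSF10. LTA, TNFSF13 and TNFSF13B had 2 windows each, and 1 of the 2 held no match to any motif. Of the LTA window with matches, 235 bases lay in LTA exons and 15 outside. No window of the 9 genes held the CRE or the NR4A response element. A match describes letters in these windows and is not evidence of binding.

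Without LPS the 9 ligands spanned a wide range of levels. In shNT cells at 5% CO2, TNFSF9, the ligand of the co-stimulatory receptor TNFRSF9, was at 70.3 ± 7.75 TPM (SD, n = 3) and TNF at 65.3 ± 11.8 TPM. Their libraries overlapped, so their order was not resolved. TNFSF14, known as LIGHT, was at 39.6 ± 8.46 TPM and LTB, the membrane-anchored lymphotoxin subunit, at 32.2 ± 6.70 TPM, again overlapping. The B cell survival factors TNFSF13B (BAFF) and TNFSF13 (APRIL) followed at 9.27 ± 1.57 and 6.63 ± 0.437 TPM, above the death receptor ligand TNFSF10 (TRAIL) at 4.65 ± 0.487 TPM. LTA, the soluble lymphotoxin subunit, was at 3.46 ± 0.389 TPM. TNFSF15 (TL1A), the ligand of TNFRSF25, was lowest at 0.547 ± 0.139 TPM, and over the 18 libraries without LPS it had only 6 to 73 counts. From TNFSF13B down to TNFSF15 no neighbours in this order overlapped.

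**Figure D1:**
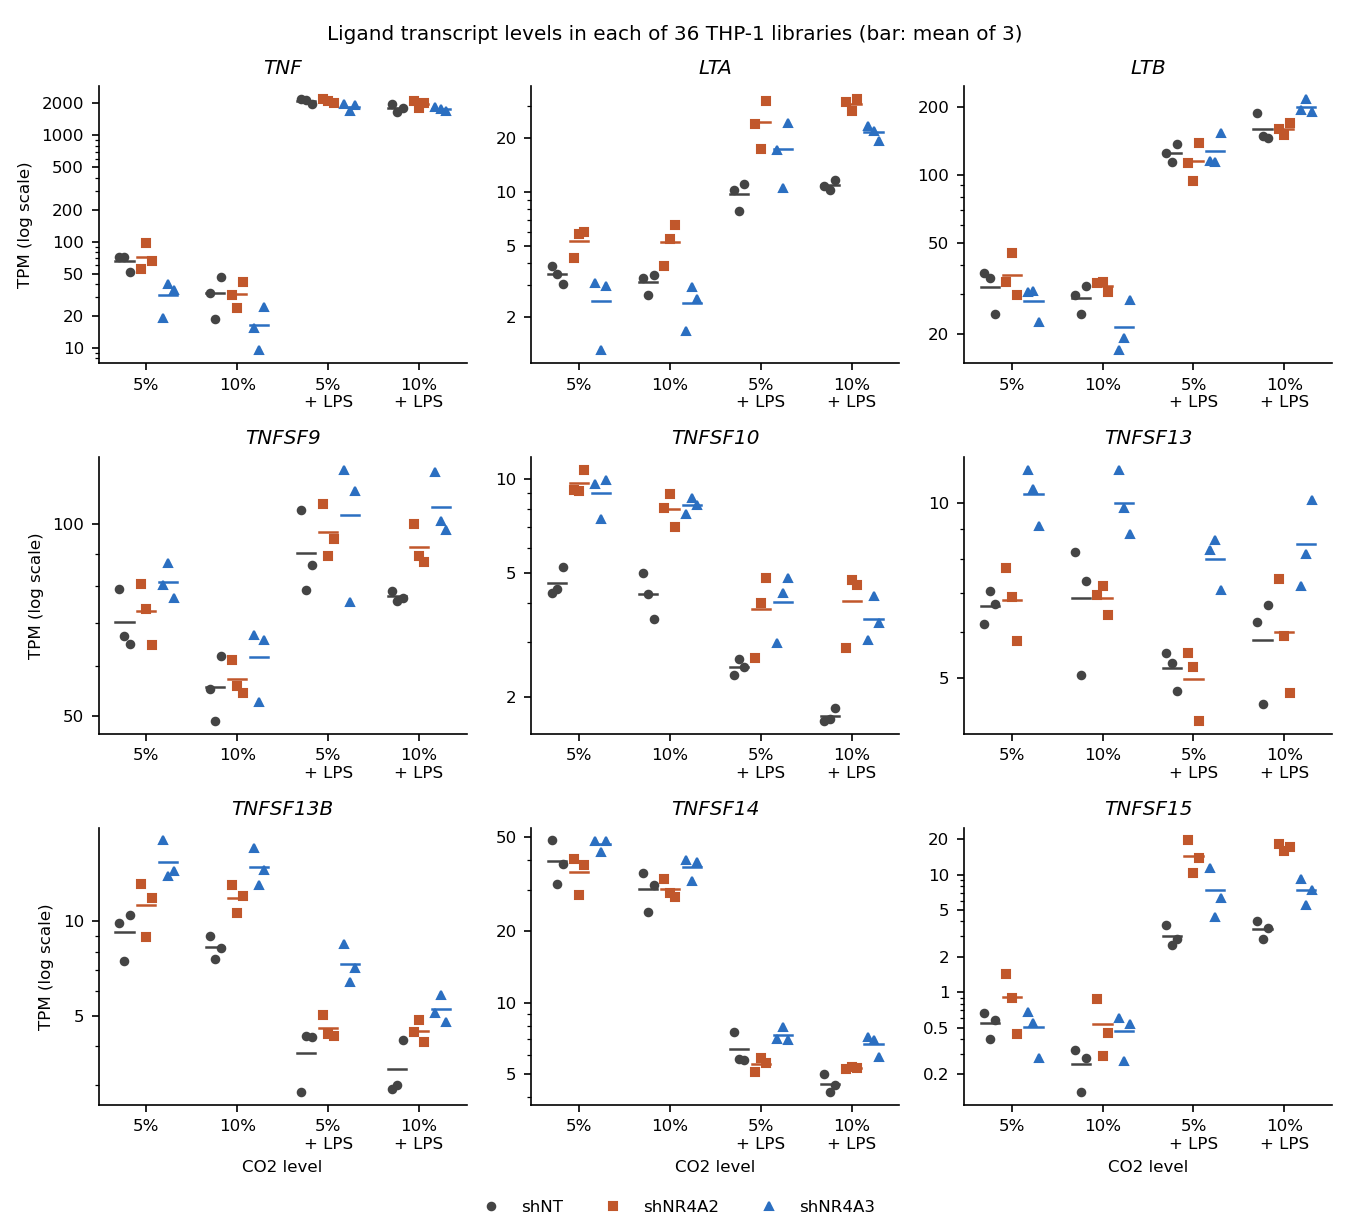
Transcript level (TPM, log axis) of each ligand gene in all 36 libraries, by CO2 level and LPS, with 1 point per library, 1 colour per line and a bar at the mean of 3. TNF lies between 9.51 and 96.8 TPM without LPS and between 1653 and 2223 TPM with it, whereas TNFSF14 lies between 24.1 and 48.5 TPM without LPS and between 4.18 and 7.92 TPM with it.

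LPS changed the balance between the ligands. The summed level of the 9 genes rose from a median of 200.4 TPM over 18 libraries without LPS (136 to 276) to 2254 TPM with it (1904 to 2506). TNF made up 6.40% to 35.1% of that sum without LPS (median 17.7%) and 82.7% to 90.8% with it (median 87.0%). Without LPS TNFSF9 had the highest mean level in each of the 6 conditions. At 5% CO2 its libraries overlapped those of TNF in shNT and in shNR4A2 cells, where the means were 73.0 and 72.6 TPM, so the order of the pair was not resolved there.

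**Figure D2:**
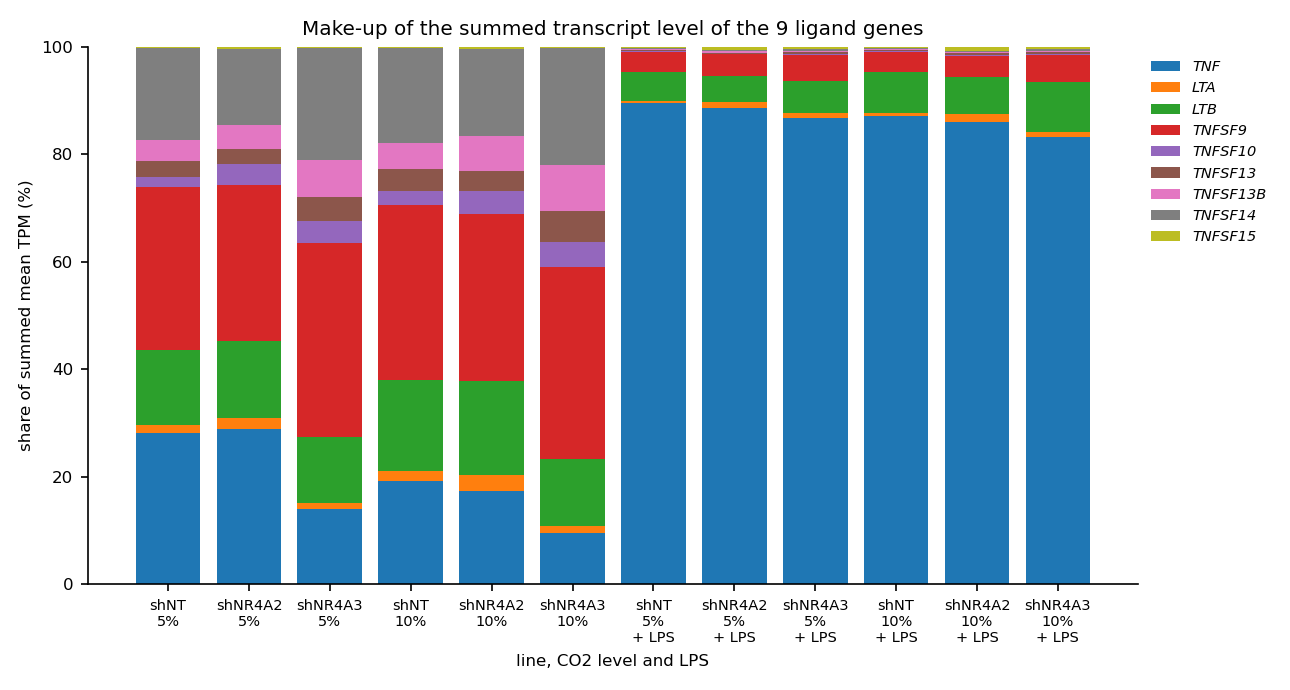
Share (%) of the summed mean TPM of the 9 ligand genes taken by each gene, 1 bar per condition. TNF takes 9.48% of the bar in shNR4A3 cells at 10% CO2 and 89.6% in shNT cells at 5% CO2 + LPS.

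Each line and CO2 level gave 1 comparison of LPS with no LPS, 6 in all. In each of them 5 ligands were higher with LPS (TNF, LTA, LTB, TNFSF9 and TNFSF15) and 3 were lower (TNFSF10, TNFSF13B and TNFSF14), and TNFSF13 was not called. LPS moved many genes: of all genes tested, 11.2%, 15.1%, 8.91%, 16.5%, 11.9% and 20.6% were called higher and 11.6%, 16.1%, 9.26%, 18.5%, 13.4% and 21.5% lower, for shNT, shNR4A2 and shNR4A3 cells at 5% and then 10% CO2. The median log2 difference of the 9 ligands was 0.58 to 1.07, against -0.01 to 0.00 over all genes tested. With scaling by library size only, the median over all genes was -0.25 to -0.18, so a gene that did not move on the fitted scale can be slightly lower with LPS in TPM. The summed level of the 10 monocytic markers moved too, from 1711 to 3372 TPM without LPS to 969.7 to 2440.3 TPM with it, and its part in these results was not tested.

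TNF had the largest response of the 9. In shNT cells at 5% CO2 its level was 72.3, 71.9 and 51.6 TPM without LPS and 2221, 2168 and 1964 TPM with it. At 10% CO2 the same line gave 32.9, 18.6 and 46.7 TPM and 1969.8, 1653 and 1795 TPM. Every treated library was far above every untreated one. The log2 difference was 5.24 ± 0.15 (SE) at 5% CO2, a 37.7-fold rise, and 6.06 ± 0.36 at 10% CO2, a 66.6-fold rise (adjusted p = 7.54e-11 and 1.09e-04). In shNR4A2 cells it was 5.14 ± 0.21 and 6.22 ± 0.22, and in shNR4A3 cells 6.13 ± 0.26 and 7.06 ± 0.30. The levels reached with LPS lay within 1653 to 2223 TPM in all 18 libraries, while those without LPS ranged from 9.51 to 96.8 TPM.

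TNFSF15 started from the lowest level and rose by log2 differences of 2.67 to 5.31 (adjusted p = 1.43e-09 to 9.34e-04). In shNT cells at 5% CO2 it moved from 0.668, 0.396 and 0.579 TPM to 3.71, 2.54 and 2.81 TPM. In shNR4A2 cells at 10% CO2 it moved from 0.871, 0.286 and 0.453 TPM to 18.4, 16.1 and 17.2 TPM, the largest of the 6 differences at 5.31 ± 0.25. The basal counts behind these values were low, and the fitted sizes carry that uncertainty.

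Both lymphotoxin subunits rose. LTA, which binds TNF receptors as a homotrimer, went from 3.84, 3.48 and 3.07 TPM to 10.2, 7.78 and 11.02 TPM in shNT cells at 5% CO2, and its 6 log2 differences ran from 1.71 to 3.41 (adjusted p = 1.04e-08 to 3.51e-04). LTB, which anchors the LTA/LTB heterotrimer and binds LTBR, went from 36.8, 35.3 and 24.5 TPM to 125, 114 and 136 TPM, with log2 differences of 1.94 to 3.50 (adjusted p = 4.77e-11 to 1.08e-05). For both genes the treated and untreated libraries did not overlap in any line or CO2 level.

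TNFSF9 rose least, by 0.58 to 1.07 on the log2 scale (adjusted p = 1.31e-05 to 0.0402). Over all lines it ranged from 49.1 to 87.0 TPM (median 65.4) without LPS and from 75.4 to 122 TPM (median 92.0) with it, so the 2 sets of 18 libraries overlapped. In shNR4A3 cells at 5% CO2 the treated libraries were at 122, 75.4 and 113 TPM against 80.3, 87.0 and 76.5 TPM, and the middle treated library lay under all untreated ones. There the adjusted p of 0.0402 moved to 0.0871 to 0.137 when any 1 of 5 libraries was left out (all but the second with LPS), and to 0.0924 with scaling by library size only.

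Of the 3 ligands that fell, TNFSF14, a ligand of LTBR and TNFRSF14, fell most. It went from 48.5, 31.7 and 38.4 TPM to 7.55, 5.77 and 5.72 TPM in shNT cells at 5% CO2, and over all lines from 24.1 to 48.5 TPM (median 36.7) to 4.18 to 7.92 TPM (median 5.75). Its log2 differences lay between -2.21 and -2.46 (adjusted p = 6.67e-10 to 7.50e-08), a fitted fold of 4.62 to 5.50. TNFSF13B went from 9.88, 7.49 and 10.4 to 2.85, 4.30 and 4.26 TPM in the same cells, and its differences were -0.86 to -1.23 (adjusted p = 2.27e-05 to 0.00369). TNFSF10, which signals apoptosis through TNFRSF10A and TNFRSF10B, went from 4.30, 4.44 and 5.20 to 2.36, 2.65 and 2.50 TPM, and its differences were -0.66 to -1.06 (adjusted p = 3.20e-04 to 0.0203). The smallest of these, in shNT cells at 5% CO2, moved from an adjusted p of 0.0203 to 0.0661 without the third untreated library, 0.0614 without the first treated one and 0.0778 with DESeq2. TNFSF13, the ligand with the uncertain count, had differences of -0.19 to 0.09, and the 95% interval of the lowest was -0.64 to 0.26. In TPM its treated libraries lay below the untreated ones in each line at 5% CO2 and overlapped them at 10%.

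**Figure D3:**
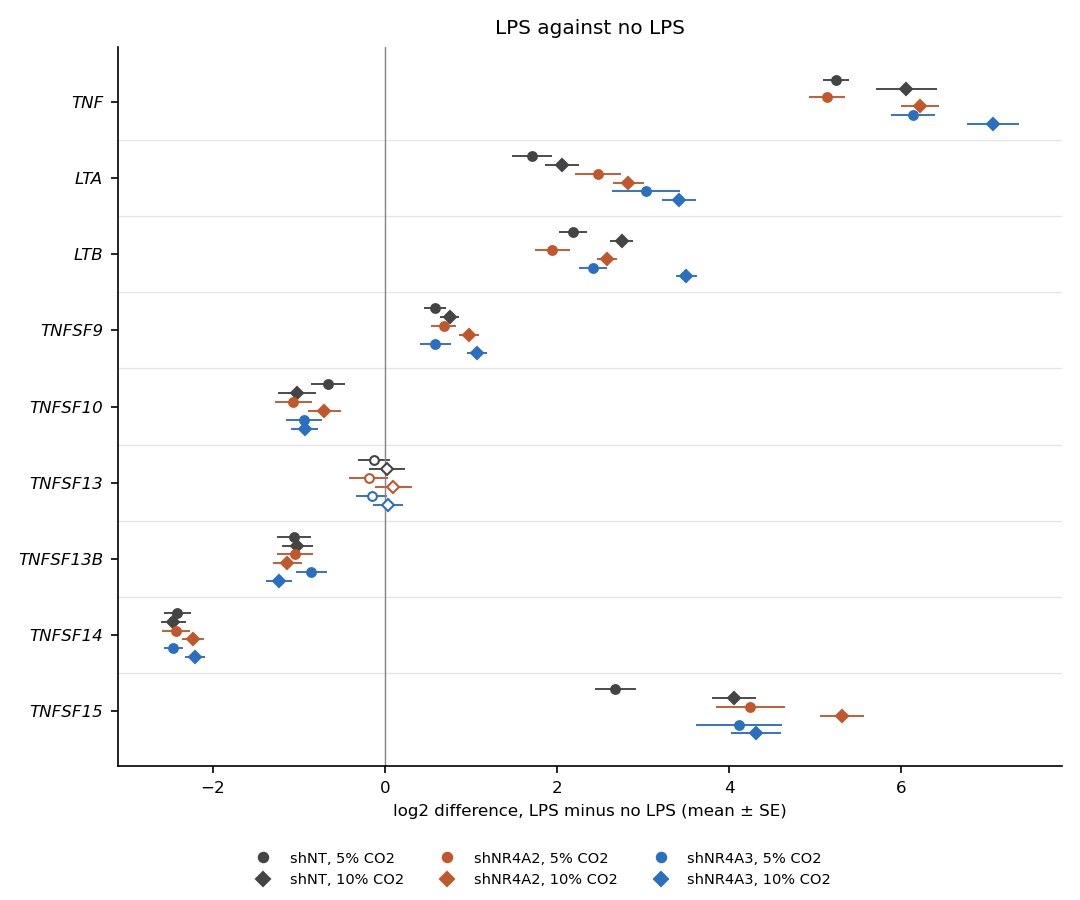
Log2 difference of LPS against no LPS for each ligand gene (edgeR estimate ± SE), with 1 point per line and CO2 level and filled points where the adjusted p is under 0.05. TNF lies furthest to the right, between 5.14 and 7.06, TNFSF14 furthest to the left, between -2.21 and -2.46, and TNFSF13 around 0.

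The series asks how cells respond to 10% against 5% CO2. Without LPS, TNF was lower at 10% CO2 in each of the 3 lines. In shNT cells it was 72.3, 71.9 and 51.6 TPM at 5% and 32.9, 18.6 and 46.7 TPM at 10% CO2. In shNR4A2 cells it was 55.5, 96.8 and 65.4 TPM at 5% and 31.5, 23.6 and 41.5 TPM at 10% CO2, and in shNR4A3 cells 19.3, 39.8 and 35.2 TPM and 15.4, 9.51 and 24.3 TPM. The libraries of the 2 CO2 levels did not overlap in shNT and shNR4A2 cells and did in shNR4A3 cells. Log2 differences were -0.91 ± 0.29, -1.11 ± 0.23 and -0.93 ± 0.37 (SE), and none passed in its own line with edgeR (adjusted p = 0.208, 0.194 and 0.290). DESeq2 called TNF in shNR4A2 cells (adjusted p = 0.00136) and in neither other line. Without the filter on low counts edgeR called it in shNT (0.00787) and shNR4A2 cells (9.47e-09). As a mean over the 3 lines in 1 fit to all 36 libraries, the difference was -0.99 ± 0.17 with a 95% interval of -1.32 to -0.66 (adjusted p = 2.36e-04).

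In the separate lines 0 of the 9 ligands were called without LPS, where 0.615%, 0.0113% and 1.13% of all genes were, in shNT, shNR4A2 and shNR4A3 cells. At an unadjusted p under 0.05 there were 2, 2 and 4 ligands. The all-gene shares were unstable. In shNT cells the 109 genes called became 0 without the first library at 5% or the second at 10% CO2 and 559 without the first at 10% CO2. In shNR4A2 cells 2 genes became 0 to 8 when 1 library was left out. They became 361, with 0 ligands among them, under the replicate block, which fits the replicate number as a term. The block was taken as the paired analysis there. In shNR4A3 cells 200 genes became 0 without the second library at 10% CO2 and 365 without the first at 5% CO2. The mean over the 3 lines called 3 ligands, all lower, against 17.4% of all genes called in either direction. Beside TNF these were TNFSF9 at -0.32 ± 0.09 (adjusted p = 0.0156) and TNFSF14 at -0.27 ± 0.08 (adjusted p = 0.0168). TNFSF9 went from 79.2, 66.8 and 65.0 to 55.1, 49.1 and 62.1 TPM in shNT cells, from 80.5, 73.7 and 64.7 to 61.3, 55.7 and 54.4 in shNR4A2 cells and from 80.3, 87.0 and 76.5 to 66.9, 52.6 and 65.8 in shNR4A3 cells, with no overlap in any line. TNFSF14 overlapped in shNT and shNR4A2 cells, and its adjusted p became 0.0659 without the first shNT library at 5% CO2 and 0.0528 without the second at 10% CO2. TNFSF15 had the next largest difference, -0.66 ± 0.35, and did not pass (adjusted p = 0.207). The median of the 9 ligands was -0.19, against -0.01 over all genes.

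With LPS a different ligand, LTB, was called, and whether the response differed from that without LPS is tested below. TNF differed little between CO2 levels, at -0.09 ± 0.07, -0.04 ± 0.12 and -0.02 ± 0.10 in shNT, shNR4A2 and shNR4A3 cells, and the interval of the mean over lines was -0.34 to 0.23. LTB was higher at 10% CO2 in each line. In shNT cells with LPS it was 125, 114 and 136 TPM at 5% and 187, 148 and 145 TPM at 10% CO2, and in shNR4A2 cells 113, 93.6 and 138 TPM and 159, 150.3 and 169.7 TPM. In shNR4A3 cells it was 115, 114 and 154 TPM at 5% and 193, 217 and 190.1 TPM at 10% CO2. No line had overlapping libraries. The log2 differences were 0.49 ± 0.12 (adjusted p = 0.0344), 0.52 ± 0.15 (0.144) and 0.69 ± 0.12 (0.0237), and the mean over lines was 0.56 ± 0.10 (adjusted p = 1.14e-04).

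LTB was the 1 ligand called in shNT and in shNR4A3 cells with LPS, and 0 were called in shNR4A2 cells (1 ligand, LTB, at an unadjusted p under 0.05, and 0 with DESeq2). Of all genes, 8.19%, 2.13% and 0.198% were called in those lines, and these shares were unstable too. In shNT cells 1452 genes became 334 without the second library at 10% CO2 and 2148 without the third at 5% CO2. In shNR4A3 cells 378 became 1 without the first or the second library at 10% CO2. In shNR4A2 cells 35 became 0 without the first library at 5% or any 1 at 10% CO2 and 1122 without the third at 5% CO2, and DESeq2 called 600 and 1 fit to all 36 libraries 1009. Over the 3 lines LTB was again the 1 ligand called, against 29.3% of all genes, and the median was -0.01 for the 9 ligands and -0.00103 for all genes. The call for LTB in shNT cells rested on most libraries: its adjusted p became 0.116 and 0.107 without the first or second library at 5% CO2, 0.0759 and 0.109 without the first or second at 10% CO2, and 0.0930 in 1 fit to all 36 libraries. In shNR4A3 cells it became 0.0620 without the first library at 5% CO2, and 0.0770 and 0.147 without the first or second at 10% CO2. In shNR4A2 cells LTB passed (0.0181) once the third library at 5% CO2 was left out. LTA, its partner subunit, differed by 0.34 ± 0.14 over the lines and did not pass (adjusted p = 0.0607). It passed without the third library at 5% CO2 of shNT (0.0449), shNR4A2 (0.0159) or shNR4A3 cells (0.0110), and TNFSF13 (0.0391) without the third shNR4A2 library at 10% CO2.

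**Figure D4:**
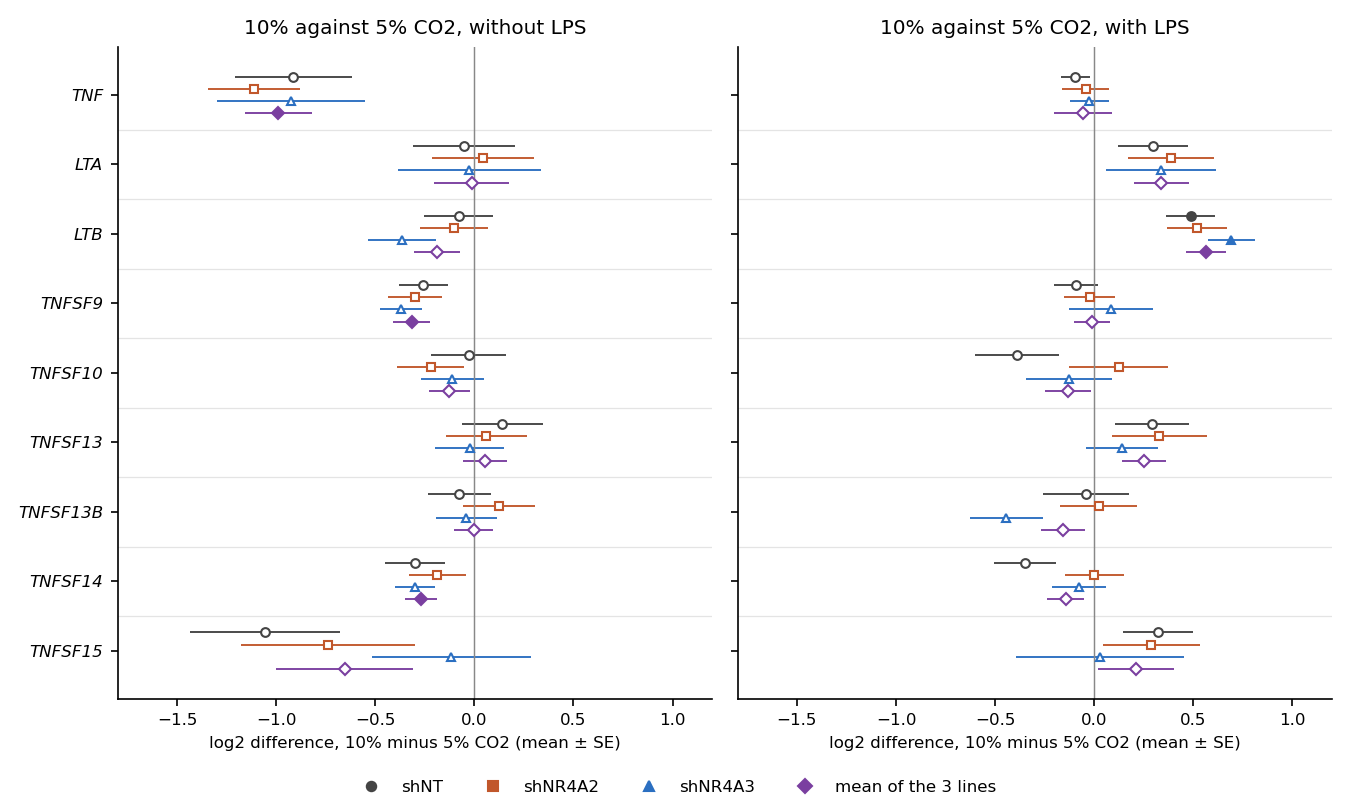
Log2 difference of 10% against 5% CO2 for each ligand gene (edgeR estimate ± SE) without LPS (left) and with LPS (right), with 1 point per line, a diamond for the mean over the 3 lines, and filled points where the adjusted p is under 0.05. TNF lies at -0.99 over the lines without LPS and at -0.06 with it, whereas LTB lies to the right of 0 with LPS in all 3 lines.

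Whether LPS changed the CO2 response was tested directly in each line, as the CO2 difference with LPS minus that without. For TNF this was 0.82 ± 0.38 in shNT, 1.07 ± 0.38 in shNR4A2 and 0.91 ± 0.40 in shNR4A3 cells, with unadjusted p of 0.0408, 0.00920 and 0.0327. For LTB it was 0.57 ± 0.27, 0.62 ± 0.26 and 1.06 ± 0.27, with unadjusted p of 0.0414, 0.0248 and 4.92e-04. All 6 values were positive, and none passed after adjustment (adjusted p = 0.575 to 0.981). Of the 9 ligands 0 were called in each line by edgeR and by DESeq2, with 2, 2 and 3 whose p was under 0.05 before adjustment, and of all genes 0%, 0.00564% and 0.00564% were called. In no single line was the CO2 difference of TNF therefore shown to depend on LPS. The same contrast as a mean over the lines, where TNF was called without LPS, was not tested.

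The CO2 response of the ligands was compared between lines as well, as the difference in shNR4A2 or shNR4A3 cells minus that in shNT cells. Of the 9 ligands 0 were called by edgeR or DESeq2 in any of the 4 contrasts, and 0 had an unadjusted p under 0.05. Over all genes 0% were called in each of these contrasts too. For TNF without LPS the difference from shNT cells was -0.19 ± 0.40 in shNR4A2 cells (95% interval -0.97 to 0.59) and -0.02 ± 0.41 in shNR4A3 cells (-0.83 to 0.79). For LTB with LPS it was 0.04 ± 0.25 (-0.45 to 0.53) and 0.21 ± 0.25 (-0.28 to 0.70). All 4 intervals include 0 and are wide.

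The knockdown lines were next compared with shNT cells within each condition, and both sets of comparisons share the shNT libraries. The summed monocytic markers also differed between lines, at 1711 to 2267 TPM in shNT, 2408 to 2725 TPM in shNR4A2 and 2463 to 3372 TPM in shNR4A3 cells without LPS, and 969.7 to 1508, 1668 to 2069 and 1896 to 2440.3 TPM with LPS. The summed T cell markers, of which only CD5 averaged over 1 TPM, differed as well, at 0.827 to 1.79, 2.06 to 3.27 and 1.70 to 4.48 TPM without LPS and 1.25 to 2.37, 2.54 to 5.99 and 4.14 to 8.08 TPM with LPS, in the same order of lines. The part of either list in the differences between lines was not tested. In shNR4A2 cells the ligands called were TNFSF10, LTA and TNFSF15, all higher. TNFSF10 was 9.22, 9.11 and 10.7 TPM at 5% CO2 against 4.30, 4.44 and 5.20 TPM in shNT cells, and 8.09, 8.95 and 7.03 TPM at 10% CO2 against 5.01, 4.27 and 3.55 TPM. With LPS it was 2.87, 4.73 and 4.57 TPM at 10% CO2 against 1.67, 1.70 and 1.84 TPM. None of these 3 comparisons overlapped, and the log2 differences were 1.06 ± 0.16, 0.86 ± 0.19 and 1.18 ± 0.22 (adjusted p = 0.00217, 0.00599 and 0.00241). At 5% CO2 + LPS, again without overlap, the difference was 0.67 ± 0.24 and did not pass (adjusted p = 0.133). It passed with the replicate number as a block (0.0127), in a comparison whose replicate numbers were taken to pair the libraries.

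LTA and TNFSF15 separated from shNT cells with LPS. At 5% CO2 + LPS, LTA was 24.1, 17.3 and 32.0 TPM in shNR4A2 and 10.2, 7.78 and 11.02 TPM in shNT cells, a log2 difference of 1.40 ± 0.26 (adjusted p = 0.0127, and 0.0534 without the first shNR4A2 library). At 10% CO2 + LPS it was 31.7, 28.4 and 33.2 TPM against 10.8, 10.3 and 11.6 TPM, a difference of 1.48 ± 0.13 (adjusted p = 9.09e-06). TNFSF15 was 19.6, 10.3 and 13.7 TPM against 3.71, 2.54 and 2.81 TPM at 5% CO2 + LPS, and 18.4, 16.1 and 17.2 TPM against 4.03, 2.84 and 3.49 TPM at 10% CO2 + LPS. Its differences of 2.33 ± 0.28 and 2.29 ± 0.13 were the largest of any ligand between lines (adjusted p = 0.00329 and 3.28e-07). Without LPS both genes were above shNT on average and did not pass: LTA differed by 0.62 ± 0.25 and 0.71 ± 0.26, and TNFSF15 by 0.75 ± 0.39 and 1.06 ± 0.45, at 5% and 10% CO2. TNF differed by -0.05 to 0.15 over the 4 conditions, with adjusted p of 0.488 to 0.958.

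The ligands called in shNR4A2 cells numbered 1 at 5% CO2, 2 at 5% CO2 + LPS, 1 at 10% CO2 and 3 at 10% CO2 + LPS, where 5.69%, 6.21%, 7.95% and 18.9% of all genes were called. Leaving out 1 library moved these 1008, 1101, 1409 and 3344 genes to between 507 and 1221, 430 and 1543, 750 and 1505, and 1897 and 3745. With the replicate block the first pair, whose numbers were taken to pair the libraries, became 3803 and 4369. The medians of the 9 ligands were 0.16, 0.17, 0.13 and 0.23, beside all-gene medians within 0.01 of 0. At 10% CO2 the count became 3 without the second shNR4A2 library, with TNFSF13B (0.0422) and TNFSF15 (0.0440) passing too.

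In shNR4A3 cells TNFSF13B was called higher in all 4 conditions, TNFSF10 in 3 and TNFSF13 in 2. At 5% CO2 it was 18.1, 14.0 and 14.4 TPM against 9.88, 7.49 and 10.4 TPM in shNT cells, and at 5% CO2 + LPS 8.46, 6.41 and 7.12 TPM against 2.85, 4.30 and 4.26 TPM. At 10% CO2 it was 17.1, 13.1 and 14.6 TPM against 8.99, 7.57 and 8.22 TPM, and at 10% CO2 + LPS 5.11, 5.83 and 4.76 TPM against 2.91, 3.01 and 4.19 TPM. The groups overlapped in none of them. The log2 differences in that order were 0.80 ± 0.16, 1.01 ± 0.21, 0.82 ± 0.15 and 0.61 ± 0.19 (adjusted p = 0.00747, 0.0194, 0.00223 and 0.0436). At 10% CO2 + LPS leaving out any 1 of the 6 libraries ended the call (adjusted p = 0.0540 to 0.130), as did DESeq2 (0.105), scaling by library size only (0.0617) and no filter (0.0692). At 5% CO2 + LPS leaving out the first or second shNT library (0.0664 and 0.0570) or the first or the third shNR4A3 library (0.0789 and 0.0630) did, and at 5% CO2 leaving out the second shNT library did (0.0513).

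TNFSF10 was higher in shNR4A3 than in shNT cells at 5% CO2 (1.01 ± 0.18, adjusted p = 0.00263), 10% CO2 (0.92 ± 0.17, 0.00235) and 10% CO2 + LPS (1.01 ± 0.21, 0.00602). Its libraries were at 9.64, 7.43 and 9.92 TPM at 5% CO2 and 7.71, 8.67 and 8.26 TPM at 10% CO2, and as in shNR4A2 cells none overlapped those of shNT cells. TNFSF13 was higher at 5% CO2 (0.69 ± 0.18, adjusted p = 0.0334) and 5% CO2 + LPS (0.68 ± 0.18, 0.0474), with 11.4, 10.5 and 9.10 TPM against 6.17, 7.04 and 6.69 TPM at 5% CO2. Both calls for TNFSF13 were close to the threshold. At 5% CO2 any 1 of 5 libraries, all but the third shNR4A3 library, ended the call when left out (adjusted p = 0.0606 to 0.134), and at 5% CO2 + LPS any 1 of the 6 did (0.0621 to 0.153), as did DESeq2 (0.0556), library size only (0.0722) and no filter (0.0561). At 10% CO2 its differences of 0.51 ± 0.20 without and 0.53 ± 0.18 with LPS did not pass.

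Basal TNF was lower in shNR4A3 cells at 5% CO2. There it was 19.3, 39.8 and 35.2 TPM against 72.3, 71.9 and 51.6 TPM in shNT cells, without overlap, a log2 difference of -1.02 ± 0.24 (adjusted p = 0.0396). Leaving out the first or second shNT library or the third shNR4A3 library ended the call (0.0842, 0.111 and 0.107). At 10% CO2 it was 15.4, 9.51 and 24.3 TPM against 32.9, 18.6 and 46.7 TPM, with overlap, a difference of -1.05 ± 0.45 that did not pass (adjusted p = 0.298). It passed without the second shNT library (0.0284), in 1 fit to all 36 libraries (0.0421) and with the replicate number as a block (7.18e-08). At 5% CO2 the block ended the call (0.116), and in neither comparison were the numbers taken to pair the libraries. With LPS the differences were -0.12 ± 0.09 and -0.05 ± 0.08 at 5% and 10% CO2, with 95% intervals of -0.30 to 0.06 and -0.20 to 0.11.

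At 10% CO2 + LPS, LTA, TNFSF9, TNFSF14 and TNFSF15 were higher in shNR4A3 cells too. LTA was 23.5, 21.7 and 19.3 TPM against 10.8, 10.3 and 11.6 TPM (0.96 ± 0.14, adjusted p = 5.04e-04) and TNFSF15 9.13, 5.57 and 7.36 TPM against 4.03, 2.84 and 3.49 TPM (1.08 ± 0.19, 0.00368). The differences of TNFSF9 and TNFSF14 were 0.44 ± 0.10 and 0.53 ± 0.14 (adjusted p = 0.00963 and 0.0241). Both of the latter lost their call without the third shNT library (0.0640 and 0.114), TNFSF9 also in 1 fit to all 36 libraries (0.0585), and TNFSF14 also without the second shNT library (0.0640) or the first or second shNR4A3 library (0.0815 and 0.0625). At 5% CO2 + LPS, LTA and TNFSF15 differed by 0.91 ± 0.31 and 1.36 ± 0.40 and did not pass (adjusted p = 0.129 and 0.115). There the replicate numbers were taken to pair the libraries. With the number as a block LTA (0.00111), TNFSF10 (0.0158) and TNFSF15 (3.75e-05) passed, which took the count of ligands called from 2 to 5. Without the second shNR4A3 library LTA (0.00292), TNFSF9 (0.0350) and TNFSF15 (0.00897) passed there, and DESeq2 called LTA (0.0343) and TNFSF15 (2.73e-04).

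In shNR4A3 cells 4 ligands were called at 5% CO2, 2 at 5% CO2 + LPS, 2 at 10% CO2 and 6 at 10% CO2 + LPS, of 9 each, where 6.19%, 5.41%, 6.85% and 14.5% of all genes were called. Leaving out 1 library moved these 1097, 958, 1213 and 2572 genes to between 667 and 1014, 419 and 1649, 595 and 2031, and 1269 and 2100. The replicate block gave 3312 at 5% CO2 + LPS, where the numbers were taken to pair the libraries. The medians of the 9 were 0.26, 0.68, 0.28 and 0.53, with all-gene medians again within 0.01 of 0. At 10% CO2 the count became 4 without the first shNT library, with TNFSF13 (0.0419) and TNFSF14 (0.0259) passing too. LTB was called in neither knockdown line by the main test, but in shNR4A3 cells it passed as lower at 10% CO2 without the third shNR4A3 library (0.0304) and as higher at 10% CO2 + LPS without the first shNT library (0.00823).

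**Figure D5:**
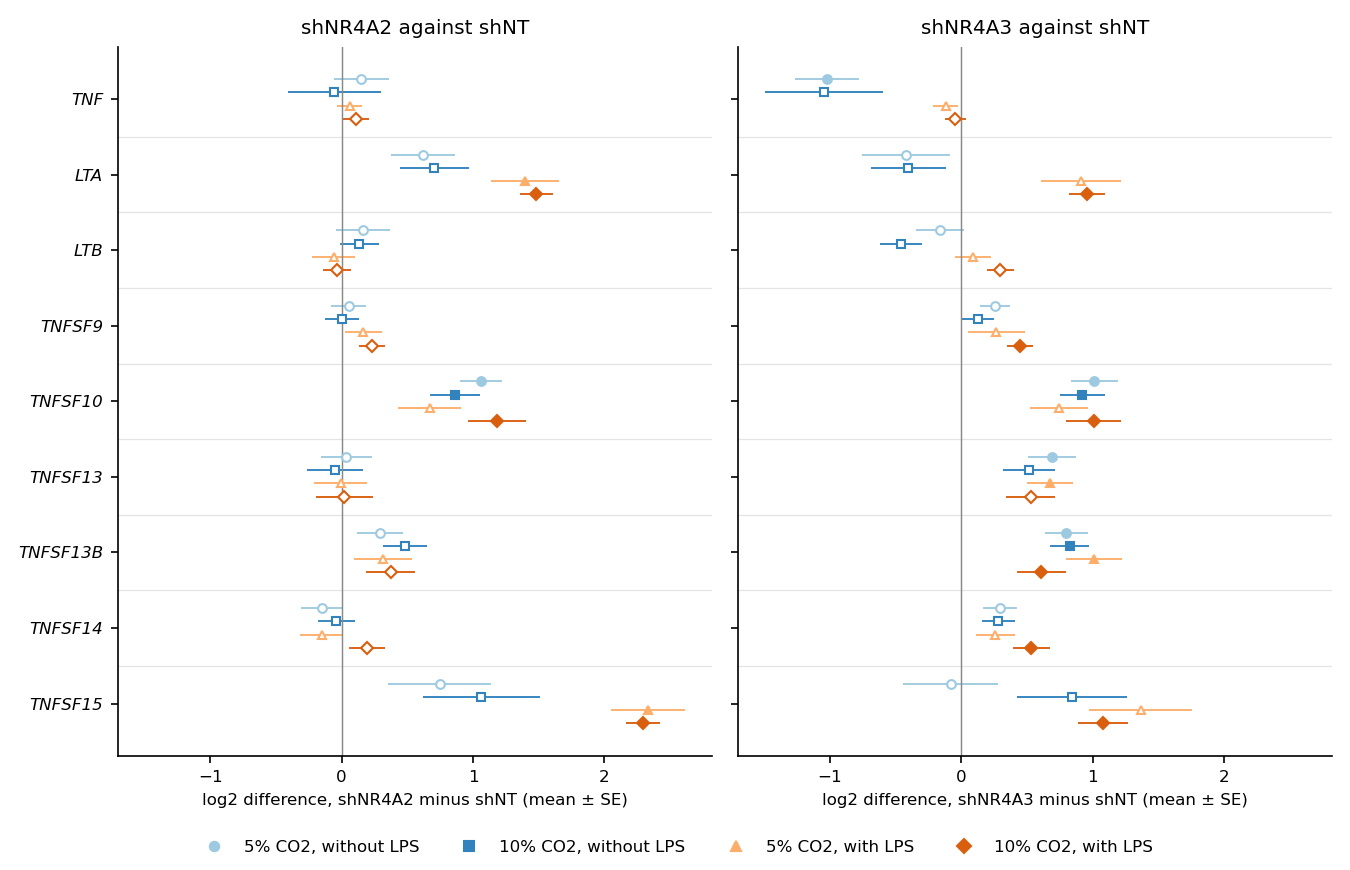
Log2 difference of shNR4A2 (left) and shNR4A3 (right) against shNT cells for each ligand gene (edgeR estimate ± SE), with 1 symbol per condition and filled points where the adjusted p is under 0.05. TNFSF10 lies to the right of 0 in both lines, TNFSF15 and LTA lie to the right with LPS, and basal TNF lies to the left in shNR4A3 cells, at -1.02 and -1.05.

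Differences in the LPS response between lines were tested in the 36-library fit. The LPS response of TNF in shNR4A3 cells exceeded that in shNT cells by 0.90 ± 0.38 at 5% CO2 and 0.99 ± 0.40 at 10% CO2, with unadjusted p of 0.0267 and 0.0198 and adjusted p of 0.932 and 0.732. For LTA the excess was 1.33 ± 0.43 and 1.35 ± 0.42 (adjusted p = 0.672 and 0.547). In shNR4A2 cells TNFSF15 differed by 1.58 ± 0.64 and 1.25 ± 0.78 and LTA by 0.78 ± 0.40 and 0.77 ± 0.39, and none passed. Of the 9 ligands 0 were called in these 4 contrasts by edgeR and by DESeq2, with 1, 0, 3 and 3 at an unadjusted p under 0.05. Over all genes 0%, 0.0169%, 0% and 0.0339% were called, for shNR4A2 and then shNR4A3 cells at 5% and 10% CO2, so no ligand was shown to respond to LPS differently between lines.

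Genes of the pathway were read as lists, and a gene is named where it was 1 of the 2 called genes with the largest change in that direction in its list. Of 15 receptors of the ligands listed, 11 passed the filter, and in the 6 LPS comparisons 2 were called higher and 5 to 7 lower, with medians of -0.80 to -0.38. Beside 8.91% to 20.6% of all genes called higher and 9.26% to 21.5% lower, the count of rises was near the background. TNFRSF1A, the receptor of TNF on most cells, went from 86.8 to 132 TPM without LPS to 28.6 to 58.7 TPM with it, and its log2 differences were -1.02 to -1.32. The receptors that rose in all 6 were TNFRSF9, the receptor of TNFSF9, and TNFRSF10B, a death receptor of TNFSF10. TNFRSF9 went from 1 to 11 counts per library without LPS (median 5) to 82 to 379 with it. That median is under the filter's minimum count of 10, so the libraries with LPS carried it through the filter. Its rise is therefore not independent of the filter. TNFRSF10B rose by 0.86 to 1.28. In the 6 CO2 comparisons of single lines 0 receptors were called higher and 0 to 2 lower, where 0.0113% to 8.19% of all genes were called. Over the 3 lines 0 higher and 3 lower of the 11 were called without LPS and 0 higher and 5 lower with LPS (medians -0.07 and -0.23), where 17.4% and 29.3% of all genes were called in either direction. Against shNT cells, TNFRSF10A, the other death receptor of TNFSF10, was among the named falls in 3 conditions in shNR4A2 cells (log2 -0.48 to -0.90) and 3 in shNR4A3 cells (-0.90 to -1.06). TNFRSF10C, a decoy receptor of TNFSF10, was lower in shNR4A3 cells in all 4 (-0.75 to -1.05). Counts of receptors called between lines were 0 to 2 higher and 0 to 3 lower, against 5.41% to 18.9% of all genes called there.

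The 25 genes of receptor-proximal signalling all passed the filter. After LPS 8 to 10 were called higher and 4 lower, with medians of -0.01 to 0.17. The shares of all genes called there were 8.91% to 20.6% higher and 9.26% to 21.5% lower. TNFAIP3, the ubiquitin-editing inhibitor of NF-κB known as A20, went from 13.4 to 37.2 TPM to 828 to 1540.0 TPM (log2 5.78 to 6.29), and BIRC3, a ubiquitin ligase of the TNF receptor complex, from 0.614 to 1.30 to 31.8 to 64.7 TPM (5.42 to 6.63). FADD, the adaptor that brings caspase-8 to death receptors, fell by 1.22 to 1.60 on the log2 scale. Over the 3 lines CO2 gave 2 higher and 4 lower of the 25 without LPS and 6 higher and 4 lower with it, not far from the 17.4% and 29.3% of all genes called. RIPK1, the kinase that joins survival and death signalling at the TNF receptor, was lower at 10% CO2 in both (log2 -0.59 and -0.43), while TRAF3, an adaptor that restrains non-canonical NF-κB signalling, was higher (0.24 and 0.48). In single lines CO2 gave 0 to 2 higher and 0 to 2 lower, where 0.0113% to 8.19% of all genes were called. The knockdown comparisons gave 0 to 7 higher and 0 to 1 lower, against 5.41% to 18.9% of all genes.

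Among 9 genes of ligand cleavage, 2 were called higher and 0 to 2 lower in each LPS comparison, with medians of -0.08 to 0.04. Of all genes, 8.91% to 20.6% were called higher and 9.26% to 21.5% lower there. The 2 that rose in all 6 were ADAM17, the sheddase of TNF (0.58 to 1.31), and SPPL2A, an intramembrane protease (0.51 to 0.71). FURIN, a proprotein convertase, was among the named falls in 4 of the 6 (-0.36 to -0.46). None was called for CO2 in a single line, where 0.0113% to 8.19% of all genes were. Over the 3 lines 0 of the 9 were higher and 3 lower without LPS, and 0 higher and 4 lower with it. Beside these, 17.4% and 29.3% of all genes were called in either direction. TIMP3, an inhibitor of ADAM17, was lower in both (-0.42 and -0.67) and was lower in shNR4A3 than in shNT cells in all 4 conditions (-0.80 to -0.96). In shNR4A2 cells 0 to 2 were higher and 0 lower, and in shNR4A3 cells 0 higher and 1 lower. Between lines 5.41% to 18.9% of all genes were called.

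Of 10 genes that control TNF mRNA stability or translation, 2 to 6 were called higher and 1 lower after LPS (medians 0.08 to 0.19). Beside these, 8.91% to 20.6% of all genes were called higher and 9.26% to 21.5% lower. ZC3H12A, the endonuclease known as Regnase-1, went from 10.2 to 22.6 to 529 to 695 TPM, while ZFP36L2, of the family of tristetraprolin, fell from 361 to 654 to 100.1 to 231 TPM. ZFP36, tristetraprolin itself, which binds TNF mRNA and promotes its decay, was among the named rises after LPS in 4 of the 6 comparisons (0.76 to 1.09). At 10% CO2 it was lower over the 3 lines (log2 -0.38 without LPS and -0.35 with it). It was higher in shNR4A3 than in shNT cells in all 4 conditions (0.40 to 0.70). For CO2 over the 3 lines the list gave 0 higher and 4 lower without LPS and 3 higher and 4 lower with it. The shares of all genes were the same 17.4% and 29.3%. In single lines CO2 gave 0 to 1 higher and 0 to 1 lower, where 0.0113% to 8.19% of all genes were called. The knockdown comparisons gave 0 to 4 higher and 0 to 1 lower, against 5.41% to 18.9% of all genes.

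Genes with the pattern most like each ligand were found as the highest Pearson correlation over the 12 condition means of log2 CPM, among genes averaging at least 1 CPM. These values are descriptions over 12 points that share the LPS contrast, and many genes follow it. For TNF they were DUSP8 (r = 0.997), EGR1 (r = 0.995) and BSDC1 (r = 0.995), for LTB GBP1P1 (r = 0.994), BCL2L11 (r = 0.994) and NCOA4 (r = 0.994) and for LTA MET (r = 0.993), MAP1LC3A (r = 0.988) and TCF7L2 (r = 0.987). Among those of TNFSF15 were EIF1B (r = 0.993) and MDM2 (r = 0.989), and among those of TNFSF9 were BRD2 (r = 0.988) and TP53INP1 (r = 0.985). The ligands that fell were closest to other genes: TNFSF14 to CISH (r = 0.992), SUZ12P1 (r = 0.992) and HHEX (r = 0.991), TNFSF13B to KIAA0930 (r = 0.973), ANXA2R (r = 0.971) and BICD2 (r = 0.971) and TNFSF10 to DOLK (r = 0.972), PYCARD (r = 0.971) and RELL2 (r = 0.971). The correlations of TNFSF13, whose level moved least with LPS, were lower, with COX10 (r = 0.966), OCRL (r = 0.950) and PRDM6 (r = 0.947).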

How the data were processed

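Polyadenylated RNA of 36 THP-1 libraries was sequenced as paired-end Illumina reads. The authors deposited raw counts per gene with gene lengths and positions, and these counts were used as deposited. The submitters' processing notes and the study's methods name Trimmomatic 0.36, STAR 2.5.2b, GRCh38 and featureCounts of Subread 1.5.2, counting unique hits. The annotation release and the strand setting are not given in the sources used here. Groups were taken from the labels. Replicates of a group differed by more than sampling noise (chi-square per degree of freedom 6.63 to 29.6).

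Of 57500 genes, 56410 (98.1%) were paired with a symbol, and 17720 passed filterByExpr (minimum count 10, minimum total 15). The main test was the quasi-likelihood test of edgeR 4.0.16 with TMM scaling and Benjamini-Hochberg adjustment. Pairwise comparisons used their own 6 libraries, and means over lines and differences between responses used 1 fit to all 36. Standard errors came from the log2 difference and its F statistic, and 95% intervals are 1.96 standard errors either side. Exact permutation of 3 against 3 libraries cannot give a p under 0.1.

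All 9 ligands are named, and pathway genes by the largest changes among called genes, at most 2 in each direction of a list and comparison. For each ligand the 3 genes with the most similar pattern were found, and for TNFSF9 and TNFSF15 1 of them is not reported here. The members and lists were chosen with earlier results of these data known. Alternatives were DESeq2 1.42.0, which the study's methods use, RLE scaling, library size alone, no filter, a filter at 1 CPM, a replicate block, other libraries in the fit and leaving out each library (R 4.3.3). Replicate numbers were taken to pair libraries where the deviations of same-numbered libraries correlated above 0.1 in every pair, as in 7 of 20 comparisons. Correlations of 0.11 to 0.31 there do not establish that the libraries were paired. These were LPS in shNR4A2 and shNR4A3 cells at 5% CO2 and shNR4A3 cells at 10% CO2, CO2 in shNR4A2 cells without LPS, both lines against shNT at 5% CO2 + LPS, and shNR4A2 against shNT at 5% CO2.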

Additional observations from a re-analysis of the deposited data

How the results depend on the processing

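The 8 ligands called in each LPS comparison stayed called under the alternatives run, with the exceptions given beside TNFSF9 and TNFSF10. Scaling changed the sign of 1 of 297 ligand values with RLE factors and of 11 with library size only, and no called value reversed. Calls of CO2 and of line moved more, and the cause was not tested. Of ligands called for CO2 without LPS, edgeR without the filter gave 1 in each of shNT, shNR4A2 and shNR4A3 cells where the main test gave 0, and DESeq2 gave 1 in shNR4A2 cells. With LPS no filter gave 1 in shNR4A2 cells (main 0) and 2 over the 3 lines (main 1), and 1 fit to all 36 libraries gave 0 in shNT cells (main 1). No filter also gave 1 (main 0) in the LPS response of shNR4A3 minus shNT cells at 10% CO2 (LTA) and in the dependence of CO2 on LPS in shNR4A3 cells (LTB). For shNR4A3 against shNT cells at 5% CO2 + LPS, library size only gave 1, 1 fit to all 36 libraries gave 5 and the replicate block gave 5, where the main test gave 2.

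The replicate block changed further counts where the numbers were not taken to pair the libraries. It gave 2 ligands for CO2 in shNR4A3 cells without LPS (main 0), 1 in shNR4A2 cells with LPS (main 0), and 4 over the 3 lines with LPS (main 1). It gave 2 for shNR4A2 (main 1) and 6 for shNR4A3 (main 2) against shNT cells at 10% CO2. Basal TNF in shNR4A3 against shNT cells at 5% CO2 lost its call under the block (adjusted p = 0.116).

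Leaving out each library in turn gave 0 to 1 ligands for CO2 with LPS in each line, 1 to 2 over the 3 lines with LPS and 2 to 3 without. Against shNT cells it gave, for shNR4A2, 1 to 2 at 5% CO2 + LPS and 1 to 3 at 10% CO2. For shNR4A3 it gave 1 to 3 at 5% CO2, 0 to 4 at 5% CO2 + LPS, 2 to 4 at 10% CO2 and 3 to 6 at 10% CO2 + LPS. The small CO2 difference of TNF with LPS, never called, changed sign in 6 such fits, and ranged from -0.134 to 0.0425 in shNR4A2 and from -0.117 to 0.0481 in shNR4A3 cells.

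Depth limits TNFSF15 and LTA without LPS, at 6 to 73 and 10 to 76 counts per library.

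Over all genes, the alternatives other than leaving out a library gave 94 to 418, 0 to 361 and 107 to 1073 calls for CO2 without LPS in shNT, shNR4A2 and shNR4A3 cells (main 109, 2 and 200), and 1289 to 2238, 0 to 1112 and 167 to 1402 with LPS (main 1452, 35 and 378).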

Other observations

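Other ligands of the superfamily were read as a list of 9, of which 6 passed the filter. After LPS 2 were called higher and 0 to 1 lower in the 6 comparisons, with medians of -0.53 to 0.58, beside 8.91% to 20.6% of all genes called higher and 9.26% to 21.5% lower. CD70, the ligand of CD27, was at 301 to 506 TPM without LPS, above each of the 9 ligands of the report in those cells, and at 565 to 977 TPM with it, and it rose by log2 differences of 1.00 to 1.29. TNFSF18, the ligand of TNFRSF18, had 0 to 5 counts per library without LPS and 5 to 43 with it and was called higher in all 6. It could pass the filter on low counts only through libraries with LPS. Its rise is therefore not independent of the filter, nor is the count of 2 called higher. TNFSF11, known as RANKL, was among the named falls in 4 of the 6, with 8 to 40 counts per library without LPS and 2 to 18 with it. Its median with LPS was 8 counts, under the filter's minimum of 10, and without LPS it was 28. The libraries without LPS thus helped to carry TNFSF11 through the filter. Its fall, and the count called lower, may therefore not be independent of the filter. CD70 was higher at 10% CO2 with LPS over the 3 lines (0.26, adjusted p = 3.96e-05) and lower in shNR4A2 than in shNT cells in all 4 conditions (-0.39 to -0.52). In single lines 0 were called higher and 0 lower with CO2, where 0.0113% to 8.19% of all genes were called. The knockdown comparisons gave 0 to 1 higher and 0 to 1 lower, against 5.41% to 18.9% of all genes.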
